A study of Mus musculus with 6 samples.

Results

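Transcripts of 10 enzymes that make, desaturate and elongate fatty acids were examined by RNA-seq in satellite cells of mouse muscle, the stem cells from which muscle fibres are repaired. The enzymes were taken from a fixed list of gene symbols (Fasn, Acaca, Acly, Acss2, Scd1, Scd2, Fads1, Fads2, Elovl1 and Elovl5), and each was found by its Entrez gene ID among the 27179 IDs counted. All 10 had enough counts to be among the 13202 genes tested. The cells were sorted from the muscle of wild-type C57Bl/6N mice that had been given a high-fat diet (3 libraries) or a chow diet (3 libraries), with at least 50000 cells per library. The series sets obese against lean mice. Sex, age, length of feeding and the composition of the diets are not given in the sources used here. Nothing in the labels says that the libraries of a diet came from separate animals, so each p-value reflects only how far these libraries lie apart, and that spread may be technical.

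Fatty acid synthesis starts from acetyl-CoA in the cytosol. ATP citrate lyase (Acly) makes it from citrate that leaves the mitochondria, and acyl-CoA synthetase short-chain family member 2 (Acss2) makes it from acetate. Acetyl-CoA carboxylase (Acaca) turns acetyl-CoA into malonyl-CoA in the committed step of the pathway, and fatty acid synthase (Fasn) joins these units into palmitate. Stearoyl-CoA desaturases (Scd1, Scd2) then put a double bond into saturated chains, and the front-end desaturases Fads1 and Fads2 act on polyunsaturated chains that come from essential fatty acids. Elongases lengthen the products. Elovl1 acts mainly on long saturated and monounsaturated chains and Elovl5 on polyunsaturated ones. Many of these genes are known targets of the sterol regulatory element-binding proteins (SREBPs), and in lipogenic tissues such as liver and fat they respond to feeding and insulin.

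Total counts ran from 14930394 to 18217818 per library, and the 10 enzymes together took 7906 to 11092 counts. The values below are CPM (counts relative to the total of the library, on 1 fixed scale for all), with library sizes scaled by TMM (trimmed mean of M values). A count of 3, the upper limit that a count of 0 allows, was worth 0.165 to 0.201 CPM before the TMM scaling. This limit covers counting error only, since the sources used here name no molecular identifiers. High-fat diet library 1 and chow library 3 stood apart from the other 4 in a principal component analysis of 500 variable genes, with first-component scores of -43.1 and 60.8 beside -12.3 to 6.64 for the others, and they had the fewest genes detected (13879 and 13655, beside 14939 to 15467). The members' log2 fold changes are given with and without them. Satellite cell markers were abundant in all 6 libraries. The 9 markers examined, among them Pax7 and Myf5, summed to between 4083 and 5127 CPM with the high-fat diet, while for chow the sums lay between 4160 and 5012 CPM. Among them Pax7, the defining transcription factor of these cells, was at 171, 247 and 283 CPM with the high-fat diet, against 370, 405 and 430 CPM with chow. Its values did not overlap, with a log2 fold change of -0.78 (SE 0.20) and an adjusted p of 0.180 in edgeR, 0.0123 in DESeq2 and 0.0281 in limma-voom. Pax7 was thus called lower by DESeq2 and limma-voom, which called 1.51% and 0.750% of all genes in either direction, and not by edgeR. Of the other satellite cell markers, Itga7 and Chrdl2 were higher without overlap (adjusted p = 0.328 and 0.373 in edgeR) and the other 6 overlapped. Over all tested genes, 7.42% were higher and 7.87% lower without overlap. Whether the makeup of the sorted cells has a part in the members' values was not tested.

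With the high-fat diet, the transcripts with the clearest separation between diets were those of both stearoyl-CoA desaturases, which were lower, and of the elongase Elovl1, which was higher, but none of the 10 enzymes passed the test over all genes. The level of Scd1 was 1.57-fold lower and that of Scd2 1.38-fold lower with the high-fat diet, and that of Elovl1 was 2.41-fold higher. The transcript of the central enzyme Fasn differed by less than the spread between libraries. In edgeR (quasi-likelihood F test, Benjamini-Hochberg adjusted p under 0.05) 0 of 10 members were called, where 0.258% of all tested genes were. DESeq2 and limma-voom also called 0 of 10, against 1.51% and 0.750% of all genes. At an unadjusted p under 0.05 in edgeR, 1 member was higher (Elovl1) and 1 lower (Scd1), where 3.70% of all tested genes were higher and 3.95% lower. For 3 members the libraries of the diets were fully separated. Elovl1 was higher in all 3 high-fat diet libraries than in any chow library, an order that 7.42% of all genes showed, and Scd1 and Scd2 were lower, as were 7.87% of all genes. Across the 10 members the log2 fold changes had a median of -0.21, and across all tested genes of -0.01. In all, 7 members had negative and 3 positive log2 fold changes. In counts simulated for this comparison on 13202 genes, the test found 7% of 2-fold and 37.2% of 4-fold changes. Over all genes, most changes of these sizes would thus be missed. The rates are not those of the members, whose spread between libraries differs from gene to gene. In these bulk samples, fewer cells with a transcript and less of it per cell cannot be told apart.

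**Figure D1:**
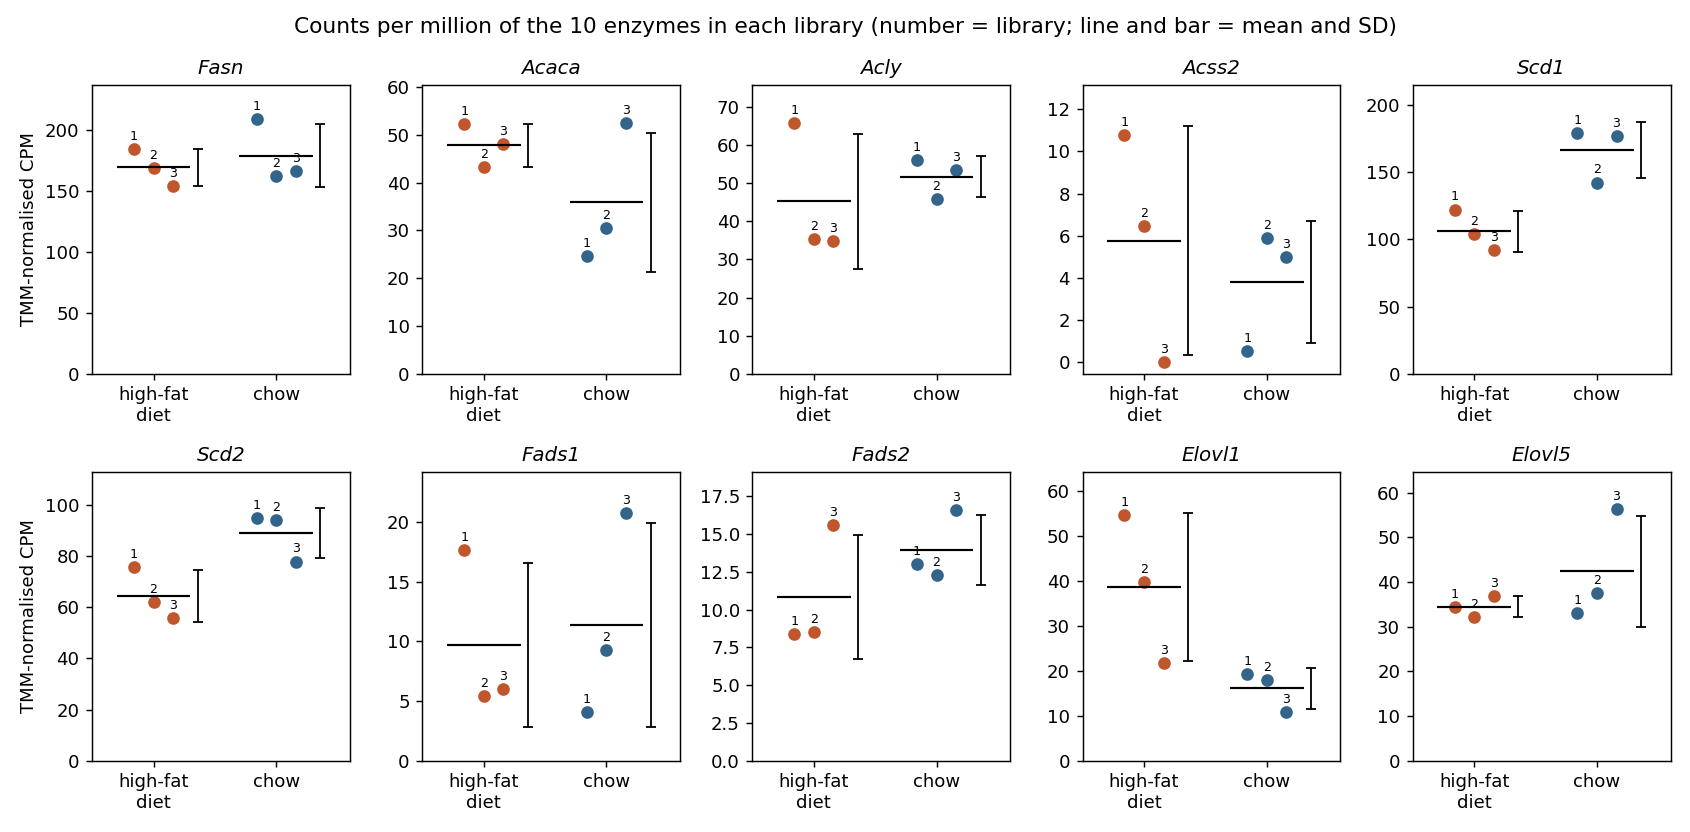
TMM-normalised CPM (y axis, linear from 0) of each enzyme in the high-fat diet (left) and chow (right) libraries. Points are libraries with their numbers, lines are means and bars are SDs (n = 3 each). Scd1 and Scd2 lie lower and Elovl1 higher in every high-fat diet library than in every chow library, while the diets overlap for the other 7.

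**Figure D2:**
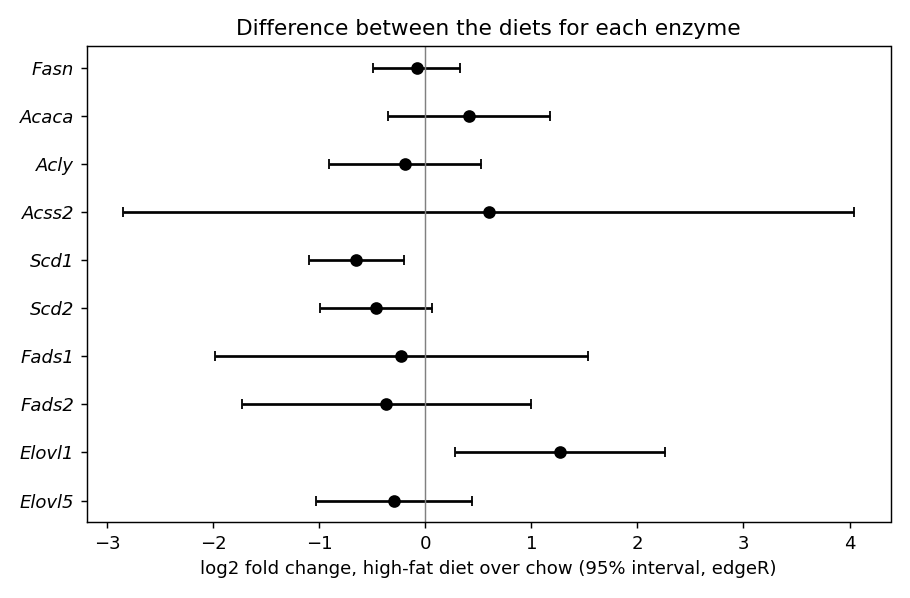
Log2 fold change (high-fat diet over chow, x axis) of each enzyme from edgeR, with its 95% interval, before any adjustment for the number of genes. The interval of Scd1 lies below 0 and that of Elovl1 above it, the other 8 span 0, and Acss2 has the widest (-2.85 to 4.04).

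Levels of different enzymes were compared per kilobase of messenger RNA exon, since a longer transcript gives more reads. On this scale the first 3 members with the high-fat diet were Scd1 (21.9 ± 3.16 CPM per kb, SD, n = 3), Elovl1 (19.9 ± 8.50) and Fasn (16.9 ± 1.51 CPM per kb). Elovl1 did not differ from either beyond its spread, while the values of Scd1 lay above those of Fasn without overlap. Fasn lay above Elovl5 (12.4 CPM per kb) by more than the spread, and no neighbours among Elovl5, Scd2 (11.8) and Acly (10.2 CPM per kb) differed beyond it. Acaca (5.30 CPM per kb) lay between Acly and Fads2 (3.44 CPM per kb) beyond the spread, and Fads1 (2.80) and Acss2 (1.96 CPM per kb) came last. With chow, Scd1 (34.4 ± 4.30 CPM per kb) was clear of Fasn (17.8 ± 2.58 CPM per kb) by more than either spread. After Fasn came Scd2 (16.3), Elovl5 (15.2) and Acly (11.7 CPM per kb), and no neighbours in this stretch of the order differed beyond their spread. Elovl1 (8.28 CPM per kb) lay below Acly and above Fads2 beyond the spread, and no neighbours among Fads2 (4.43), Acaca (3.98), Fads1 (3.28) and Acss2 (1.29 CPM per kb) did. Elovl1 thus stood second with the high-fat diet and sixth with chow. These ranks describe means and were not tested. The length is the union of the exons of a gene's messenger RNAs and need not be that of the form expressed. Reads that cross exon junctions or match another gene, as for 50.0% of the 75-base stretches of Acaca, could shift the order. Their part was not tested.

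**Figure D3:**
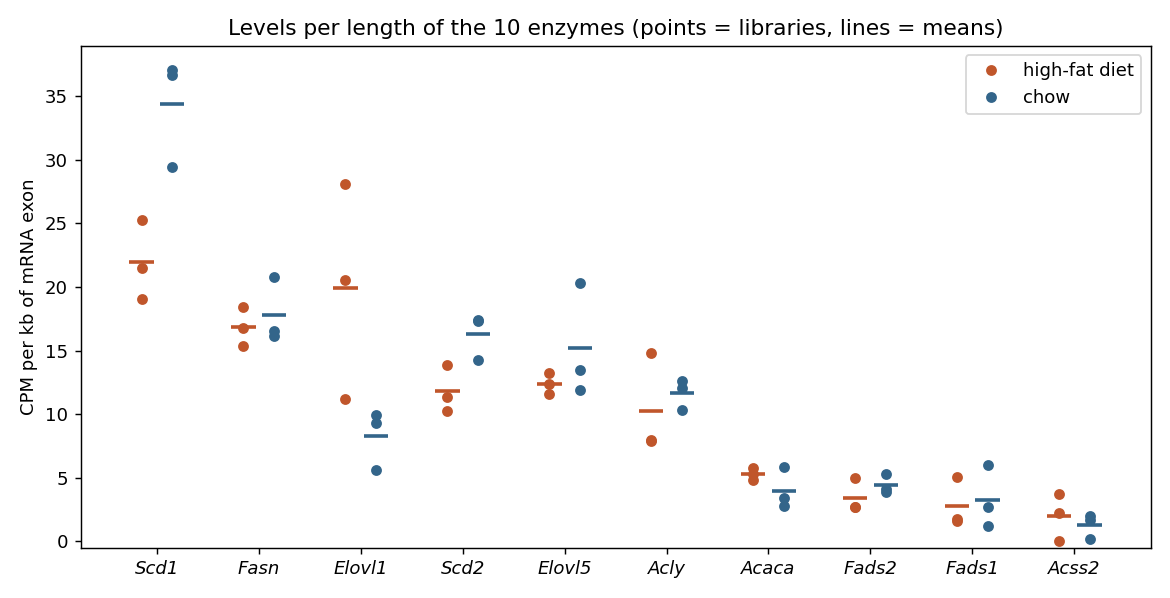
CPM per kilobase of exon (y axis) of the 10 enzymes, ordered by their mean over all 6 libraries, with high-fat diet points left of chow points and lines at the means. Scd1 heads the order, Fasn, Elovl1, Scd2, Elovl5 and Acly form a middle group, and Acaca, Fads2, Fads1 and Acss2 lie at the bottom.

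Among the enzymes that supply acetyl-CoA, Acly (gene ID 104112, chromosome 11, 100476352 to 100528000, GRCm38.p6) was at 65.7, 35.2 and 34.9 CPM in high-fat diet libraries 1, 2 and 3, and at 55.9, 45.8 and 53.4 CPM in chow libraries 1, 2 and 3. The first high-fat diet library lay above every chow library and the other 2 below, so the groups overlapped around the chow values. Means were 45.3 ± 17.7 CPM with the high-fat diet against 51.7 ± 5.30 CPM with chow (SD, n = 3 each, as for all means below), for a log2 fold change of -0.19 with an SE of 0.33 (adjusted p = 0.995). The 95% interval of the fold ran from 0.533 to 1.44. The log2 fold change of Acly was -0.55 without high-fat diet library 1, -0.04 without high-fat diet library 2, -0.03 without high-fat diet library 3, and -0.53 without both libraries that stood apart.

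Acss2 (gene ID 60525, chromosome 2, 155518043 to 155562743) was the scarcest member and the most uneven. It had 166, 101 and 0 counts in the high-fat diet libraries, or 10.8, 6.46 and 0 CPM, and 8, 101 and 87 counts in the chow libraries, or 0.502, 5.89 and 4.996 CPM. Each diet thus held a library at or near 0 beside others with 87 counts or more. The coefficient of variation between libraries was 94.5% with the high-fat diet against 76.1% with chow, where counting error alone would give 10.6% for the high-fat diet and 12.4% for chow. The log2 fold change of 0.60 (SE 1.603, adjusted p = 0.999) has no firm direction. It was -0.22 without high-fat diet library 1 and 1.19 without high-fat diet library 3, and 0.03 without both libraries that stood apart. Part of the Acss2 messenger RNA overlaps exons of Ggt7 (6.72% of its exon bases) and of Acss2os (3.86%) on the other strand, so that these reads are uncertain without a known strand setting.

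Acaca (gene ID 107476, chromosome 11, 84129635 to 84401651), which encodes the carboxylase of the committed step, was at 52.2, 43.2 and 48.1 CPM in the high-fat diet libraries and at 24.7, 30.5 and 52.4 CPM in the chow libraries. Chow libraries 1 and 2 were low, whereas chow library 3 lay above all high-fat diet libraries. Means were 47.8 ± 4.50 CPM with the high-fat diet against 35.9 ± 14.6 CPM with chow, for a log2 fold change of 0.41 with an SE of 0.36 (adjusted p = 0.934). Without chow library 3 the log2 fold change was 0.79 (adjusted p = 0.723), and without both libraries that stood apart it was 0.73 (adjusted p = 0.762). The count of Acaca carries a further uncertainty. Of the 8952 stretches of 75 bases, the read length, in its messenger RNA, 50.0% also occur exactly in Gm5182, a processed pseudogene on chromosome 12 that was not analysed here. Reads of these stretches match both transcripts exactly. Those that lie within 1 exon of Acaca match the genome at both genes, and the sources used here do not say how the counting treated such reads. Those that cross an exon junction have no unbroken match in the genome at Acaca itself. How many of the shared stretches cross a junction was not counted.

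Fasn (gene ID 14104, chromosome 11, 120805958 to 120825166), which carries out the remaining steps to palmitate on 1 protein chain, had the highest CPM of the members and a small spread. It was at 185, 169 and 155 CPM in the high-fat diet libraries and at 209, 162 and 166 CPM in the chow libraries. The ranges overlapped, and the means were 169 ± 15.2 CPM with the high-fat diet against 179 ± 25.9 CPM with chow, for a log2 fold change of -0.08 with an SE of 0.19 (adjusted p = 0.999). The 95% interval of the fold ran from 0.711 to 1.26, and without both libraries that stood apart the log2 fold change was -0.19. The 4 enzymes of synthesis summed to 268 ± 40.1 CPM with the high-fat diet against 271 ± 23.5 CPM with chow.

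Fasn is a textbook target of SREBPs, which bind sterol regulatory elements beside sites for the factor NF-Y, and its promoter is shown because it holds the most NF-Y letters of the members. RefSeq promoters (GRCm38.p6, 250 bases before to 50 after the start site) were found for 7 of the 10 members, with 8 windows in all, and none was found for Scd1, Scd2 and Fads1. Both strands were searched for TCACNCCAC and TCACNCNAC (forms of the sterol regulatory element), CCAAT (bound by NF-Y) and CACGTG (the E-box). The sterol regulatory element letters were found in 0 of 8 windows in either form, against 1.24% and 2.70% of all 32851 promoters. CCAAT was found in 5 of 8 windows and in 37.4% of all promoters, and CACGTG in 1 of 8, that of Elovl5, and in 7.15% of all. In the Fasn window, chr11:120824498-120824797 on the minus strand, CCAAT begins 62 bases before the start site, its reverse complement begins 90 and 59 bases before it, and the last 2 of these matches overlap. The windows of Acaca, Fasn and Elovl1 lie wholly inside the gene bounds given here, so the outermost start sites of these genes were not searched. A match describes letters only, and no match says only that these letters are not in this window. Capitals mark the matches in this and the later promoters.
Fasn promoter: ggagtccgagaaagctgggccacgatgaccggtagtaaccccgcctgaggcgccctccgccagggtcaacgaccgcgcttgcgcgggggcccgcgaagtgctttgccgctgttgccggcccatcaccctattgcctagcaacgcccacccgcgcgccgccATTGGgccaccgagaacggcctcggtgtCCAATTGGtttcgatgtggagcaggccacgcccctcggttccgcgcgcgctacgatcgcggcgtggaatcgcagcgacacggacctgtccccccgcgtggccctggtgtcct

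The stearoyl-CoA desaturases were lower in every high-fat diet library than in any chow library. Scd1 (gene ID 20249, chromosome 19, 44394450 to 44407709), the main form in liver and fat, was at 122, 104 and 92.0 CPM in the high-fat diet libraries and at 179, 142 and 177 CPM in the chow libraries. The highest high-fat diet value, that of library 1, lay below the lowest chow value, that of library 2. Means were 106 ± 15.2 CPM with the high-fat diet against 166 ± 20.8 CPM with chow, a log2 fold change of -0.65 (SE 0.21, 95% interval -1.10 to -0.20), with an adjusted p of 0.343 over all genes in edgeR, 0.163 in DESeq2 and 0.269 in limma-voom. It had the smallest p of the 10 members and ranked 289 among all tested genes.

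Scd2 (gene ID 20250, chromosome 19, 44293676 to 44306864), a form common in brain and many other tissues of the mouse, was at 75.8, 62.1 and 55.7 CPM in the high-fat diet libraries and at 95.1, 94.4 and 78.0 CPM in the chow libraries. The closest values were those of high-fat diet library 1 and chow library 3, the pair that stood apart. Means were 64.5 ± 10.2 CPM with the high-fat diet against 89.1 ± 9.67 CPM with chow, for a log2 fold change of -0.47 with an SE of 0.24 (adjusted p = 0.720). Together Scd1 and Scd2 summed to 198, 166 and 148 CPM in the high-fat diet libraries and to 274, 237 and 255 CPM in the chow libraries. Per kilobase, the Scd2 to Scd1 ratio was 0.549, 0.530 and 0.536 in the high-fat diet libraries and 0.470, 0.587 and 0.390 in the chow libraries, so the diets overlapped in the balance of the paralogues.

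Since the values of both genes did not overlap between the diets, leaving out single libraries could change the size of the differences but hardly their sign. The log2 fold change then ran from -0.75 to -0.55 for Scd1 and from -0.59 to -0.37 for Scd2. Without both libraries that stood apart it was -0.71 for Scd1 and -0.67 for Scd2 (adjusted p = 0.613 and 0.662).

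The paralogues lie near each other on chromosome 19 and their coding sequences, read from GENCODE M21 transcripts (GRCm38), are 90.3% identical, which bears on whether their reads can be told apart. The longest exact stretch in common runs for 147 bases, from coding base 523 to 669 of Scd1 and from 532 to 678 of Scd2, and is shown because reads that fall wholly within it match both genes. Of all 75-base stretches of the messenger RNA, 3.24% of those of Scd1 and 1.80% of those of Scd2 occur exactly in another transcript. These matches were to Scd3, Scd4 and the paralogue and, for Scd1, also to the unprocessed pseudogene AC123853.3 on the same chromosome.
Scd1 and Scd2, shared coding stretch: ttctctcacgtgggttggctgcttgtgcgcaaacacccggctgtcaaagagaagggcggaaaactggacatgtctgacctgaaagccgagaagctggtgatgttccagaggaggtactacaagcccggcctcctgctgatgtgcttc

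The front-end desaturases varied widely between libraries. Fads1 (gene ID 76267, chromosome 19, 10182877 to 10196874), the delta-5 desaturase, was at 17.6, 5.44 and 6.04 CPM in the high-fat diet libraries and at 4.08, 9.27 and 20.7 CPM in the chow libraries. The highest values were those of the 2 libraries that stood apart, 1 in each diet, and the groups overlapped throughout. Its coefficient of variation was 70.8% with the high-fat diet against 75.0% with chow, where counting alone would give 8.01% for the high-fat diet and 7.16% for chow. The log2 fold change of -0.23 (SE 0.82, adjusted p = 1.00) was -0.97 without high-fat diet library 1 and 0.54 without chow library 3, and -0.21 without both.

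Fads2 (gene ID 56473, chromosome 19, 10062765 to 10101503), the delta-6 desaturase that starts the conversion of essential fatty acids, was at 8.39, 8.51 and 15.6 CPM in the high-fat diet libraries and at 12.997, 12.3 and 16.6 CPM in the chow libraries. Among the chow values lay high-fat diet library 3, with the other 2 below them. Means were 10.8 ± 4.12 CPM with the high-fat diet against 14.0 ± 2.30 CPM with chow, for a log2 fold change of -0.37 with an SE of 0.64 (adjusted p = 0.995). It was -0.72 without high-fat diet library 3, -0.20 without high-fat diet library 1, -0.22 without chow library 3, and -0.06 without both libraries that stood apart. The Fads2 to Fads1 ratio per kilobase ran from 0.523 to 2.83 with the high-fat diet, against 0.879 to 3.50 with chow. No 75-base stretch of either messenger RNA occurs in another transcript, and the longest exact stretch shared by their coding sequences is 17 bases long, so the paralogues can be told apart by their reads.

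The elongases differed from each other in their values. Elovl1 (gene ID 54325, chromosome 4, 118426874 to 118432953) was at 54.6, 39.8 and 21.7 CPM in the high-fat diet libraries and at 19.3, 18.01 and 10.9 CPM in the chow libraries. The lowest high-fat diet value, that of library 3, lay only a little above the highest chow value, and the libraries that stood apart gave the highest high-fat diet value and the lowest chow value. Means were 38.7 ± 16.5 CPM with the high-fat diet against 16.1 ± 4.51 CPM with chow, and the log2 fold change was 1.27 (SE 0.46, 95% interval 0.28 to 2.26). Its adjusted p over all genes was 0.442 in edgeR, 0.254 in DESeq2 and 0.462 in limma-voom. The log2 fold change was 0.95 without high-fat diet library 1, 1.05 without chow library 3 and 0.73 without both (adjusted p = 0.845, 0.723 and 0.880). Exons of Elovl1 and of Cdc20, which lies on the other strand, share 53 bases (2.73% of those of Elovl1).

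Elovl5 (gene ID 68801, chromosome 9, 77917365 to 77984519) was at 34.5, 32.2 and 36.9 CPM in the high-fat diet libraries and at 33.1, 37.5 and 56.4 CPM in the chow libraries. Chow library 3 was high, and the other 5 libraries lay within a narrow range. Means were 34.5 ± 2.36 CPM with the high-fat diet against 42.4 ± 12.4 CPM with chow, for a log2 fold change of -0.30 with an SE of 0.34 (adjusted p = 0.968), and the log2 fold change was -0.03 without chow library 3 and -0.02 without both libraries that stood apart. The Elovl1 to Elovl5 ratio per kilobase was 2.27, 1.78 and 0.842 in the high-fat diet libraries and 0.835, 0.688 and 0.277 in the chow libraries. The ratios of high-fat diet library 3 and chow library 1 were nearly equal, which is given as a description with no test.

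The promoters of the elongases are shown side by side because their transcripts had fold changes of opposite sign. The 95% interval of Elovl5 spans 0, however (log2 -1.03 to 0.44), and no link between these letters and the levels was tested. Elovl1 has 2 windows in the RefSeq table. The one shown, chr4:118427843-118428142 on the plus strand, holds CCAAT 35 bases before the start site and no E-box, and the other window held none of the letters searched. The Elovl5 window, chr9:77917115-77917414 on the plus strand, holds the reverse complement of CCAAT 71 and 17 bases before the start site and an E-box 161 bases before it, which reads the same on both strands.
Elovl1 promoter: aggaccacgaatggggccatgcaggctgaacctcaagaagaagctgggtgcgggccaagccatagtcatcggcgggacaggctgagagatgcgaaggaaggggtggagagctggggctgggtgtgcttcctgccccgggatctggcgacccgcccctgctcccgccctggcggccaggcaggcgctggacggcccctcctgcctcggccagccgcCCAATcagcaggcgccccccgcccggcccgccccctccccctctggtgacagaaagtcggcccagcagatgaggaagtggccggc
Elovl5 promoter: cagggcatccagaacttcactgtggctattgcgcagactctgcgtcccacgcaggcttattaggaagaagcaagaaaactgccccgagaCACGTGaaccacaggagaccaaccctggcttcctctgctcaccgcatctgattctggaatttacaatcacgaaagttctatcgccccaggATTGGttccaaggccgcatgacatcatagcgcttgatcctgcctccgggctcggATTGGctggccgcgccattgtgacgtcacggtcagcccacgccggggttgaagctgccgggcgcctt

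**Figure D4:**
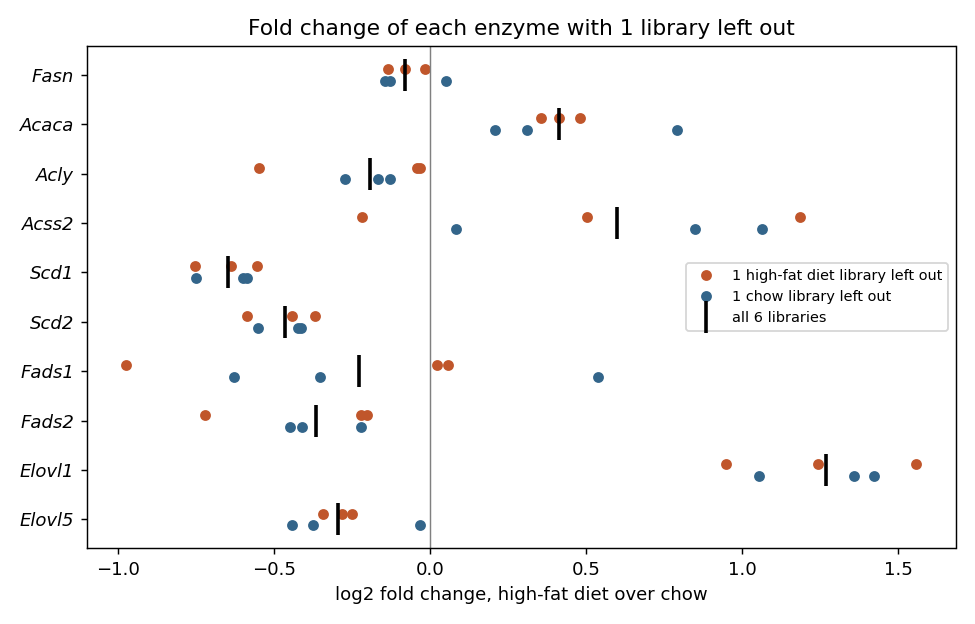
Log2 fold change (high-fat diet over chow, x axis) of each enzyme with all 6 libraries (bars) and with 1 high-fat diet or 1 chow library left out (points). Fasn, Acss2 and Fads1 have points on both sides of 0. Scd1, Scd2 and Elovl1 keep to 1 side, as do Acaca, Acly, Fads2 and Elovl5, for which the diets overlap.

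Single libraries were often the extremes. Chow library 3 had the highest value of the 6 libraries for 4 members (Acaca, Fads1, Fads2 and Elovl5) and the lowest for Elovl1. High-fat diet library 1 had the highest value for 3 members (Acly, Acss2 and Elovl1), and high-fat diet library 3 the lowest for 5 (Fasn, Acly, Acss2, Scd1 and Scd2). The 10 members summed to 627, 506 and 465 CPM in the high-fat diet libraries and to 634, 558 and 637 CPM in the chow libraries, so high-fat diet library 1 lay within the chow range.

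The rest of the pathway was described from lists of 58 further genes, of which 53 were tested. In edgeR 0 of 53 passed over all genes, and 1 had an unadjusted p under 0.05 with a higher level and 6 with a lower one, where 3.70% of all tested genes were higher and 3.95% lower at this threshold. DESeq2 and limma-voom also called 0. The median log2 fold change was -0.08, with 25 positive and 28 negative. Of these genes 3 were higher and 5 lower without overlap between the diets, where 7.42% and 7.87% of all tested genes were.

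Of 15 transcriptional regulators 0 passed, 7 had positive and 8 negative log2 fold changes, and 2 were lower at an unadjusted p under 0.05, against the 3.95% of all tested genes. Srebf1, which encodes the SREBP best known for driving fatty acid synthesis, was at 54.8, 42.3 and 42.8 CPM in the high-fat diet libraries and at 59.8, 45.2 and 31.0 CPM in the chow libraries. The diets overlapped, with a log2 fold change of 0.04 (adjusted p = 1.00, SE 0.33). Srebf2, whose protein mainly drives sterol synthesis, was at 213, 177 and 149 CPM with the high-fat diet, against 226, 245 and 263 CPM with chow, with no overlap (log2 fold change -0.44, SE 0.19, adjusted p = 0.584). Insig1, which holds SREBPs in the endoplasmic reticulum and is itself a target of them, was at 31.5, 35.0 and 39.9 CPM with the high-fat diet, against 106, 70.6 and 45.5 CPM with chow. Its values also did not overlap, and its log2 fold change was -1.06 (SE 0.33, adjusted p = 0.332).

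Of 7 other desaturases and electron donors 0 passed, with 2 positive and 5 negative log2 fold changes. Fads3, a desaturase of the same gene family as Fads1 and Fads2, had the smallest p of these. It was at 185, 177 and 181 CPM with the high-fat diet, against 127, 110 and 114 CPM with chow, a tight separation with a log2 fold change of 0.63 (adjusted p = 0.299, SE 0.19). Cyb5b, a cytochrome b5 of the outer mitochondrial membrane, had the next smallest p (log2 fold change -0.78, SE 0.53, adjusted p = 0.868). Of 8 tested elongases and enzymes of the elongation cycle 0 passed, with 4 positive and 4 negative log2 fold changes. Hsd17b12, the ketoacyl-CoA reductase of that cycle, was at 16.4, 10.4 and 15.9 CPM with the high-fat diet, against 37.9, 25.0 and 43.9 CPM with chow, for a log2 fold change of -1.32 with an SE of 0.44 (adjusted p = 0.390). These values did not overlap, whereas those of Elovl6, which elongates palmitate to stearate, did. Elovl6 was at 14.6, 19.5 and 12.5 CPM with the high-fat diet, against 16.9, 28.2 and 58.9 CPM with chow, for a log2 fold change of -1.16 with an SE of 0.51 (adjusted p = 0.618).

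Acacb, the acetyl-CoA carboxylase of the mitochondrial surface, whose product restrains fatty acid entry into mitochondria, was at 20.03, 17.1 and 40.5 CPM with the high-fat diet, against 49.9, 37.0 and 55.8 CPM with chow, for a log2 fold change of -0.88 with an SE of 0.40 (adjusted p = 0.647). Mid1ip1, whose product promotes the assembly of acetyl-CoA carboxylase, had a log2 fold change of -0.28 (adjusted p = 0.976, SE 0.34). Of the acyl-CoA synthetases, Acsl3, an enzyme of the endoplasmic reticulum and lipid droplets, was at 185, 142 and 160 CPM with the high-fat diet, against 191, 213 and 262 CPM with chow, for a log2 fold change of -0.45 with an SE of 0.20 (adjusted p = 0.613). Slc27a4 averaged 10.1 ± 2.21 CPM with the high-fat diet against 3.08 ± 2.30 CPM with chow (adjusted p = 0.786). The genes with the smallest p among those of precursors and NADPH, Me1 and Slc25a1, had an adjusted p of 0.966 and 0.988, and those of mitochondrial fatty acid synthesis, Hsd17b8 and Cbr4, had 0.827 and 0.992.

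**Figure D5:**
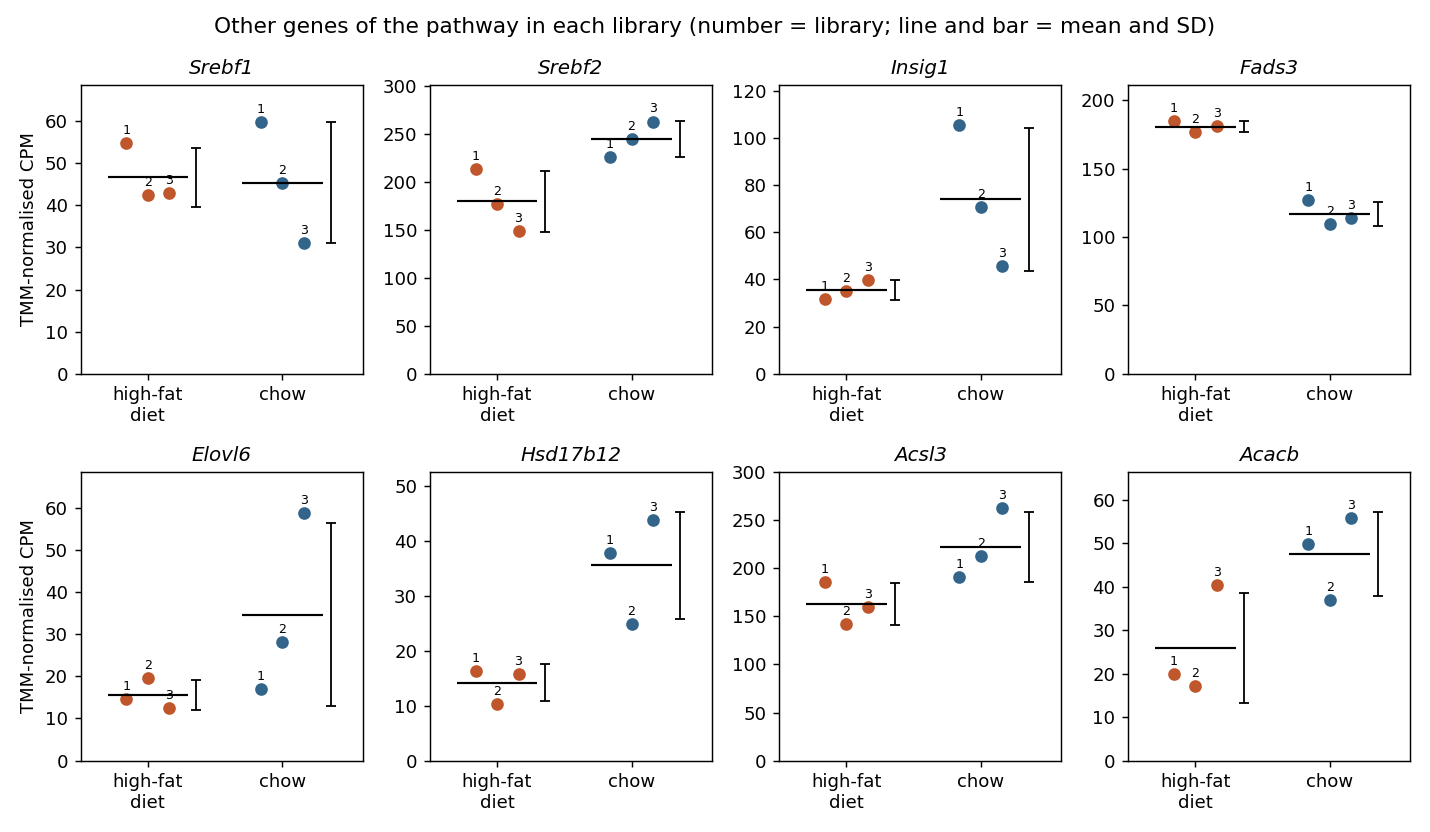
TMM-normalised CPM (y axis, linear from 0) of 8 other genes of the pathway in the high-fat diet (left) and chow (right) libraries, with library numbers, means and SDs (n = 3 each). Srebf2, Insig1, Hsd17b12 and Acsl3 are lower and Fads3 higher in every high-fat diet library than in every chow library, and the diets overlap for Srebf1, Elovl6 and Acacb.

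The genes with a pattern over the 6 libraries most like that of a member were sought for Scd1, the member with the smallest p, and Fasn, the one with the highest mean CPM. Likeness was the mean absolute difference in log2 CPM after each gene was centred on its own mean, among 7282 genes with a symbol and at least 10 CPM on average. For Scd1 the closest were Rpl32l (0.0442), which GENCODE lists as a processed pseudogene and whose count is thus uncertain, Eif3f, a subunit of a translation initiation factor (0.0573), and the predicted gene Gm10362 (0.0581). For Fasn they were the RNA-binding protein gene Hnrnpdl (0.0287), the signalling inhibitor gene Spry2 (0.0324) and the messenger RNA export factor gene Nxf1 (0.0435). Eif3f, for example, was at 67.4, 62.4 and 53.6 CPM with the high-fat diet, against 119, 84.5 and 108 CPM with chow.

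Markers of further cell types found in muscle were measured beside the members. Of 7 adipocyte markers, Plin1, Lep and Retn were at 0 in all 6 libraries and Adipoq was at 0 in all 3 high-fat diet libraries, with 2.01, 0 and 6.49 CPM in the chow libraries. Fabp4, which endothelial cells also express, made up most of their sum, which ran from 42.7 to 120 CPM with the high-fat diet, against 42.5 to 104 CPM with chow. In chow library 1, Fabp4 was at 34.7 CPM and Cidec, found almost only there, at 5.78 CPM. The 6 Schwann cell markers summed to 195 to 247 CPM with the high-fat diet, against 142 to 187 CPM with chow, mostly from Pmp22, which many cells express. The 6 markers of fibro-adipogenic progenitors summed to 464 to 632 CPM with the high-fat diet against 342 to 494 CPM with chow. The highest sum was that of high-fat diet library 1. These sums came mostly from Dpt and Dcn, whereas Pdgfra (0 to 8.28 CPM over all libraries) and Ly6a (3.18 to 11.4 CPM) were scarce. The 6 endothelial markers summed to 43.2 to 165 CPM with the high-fat diet, against 64.5 to 134 CPM with chow, and the 5 pericyte and smooth muscle markers to 65.9 to 150 CPM with the high-fat diet, against 95.6 to 171 CPM with chow. Macrophage and myofibre markers were scarce. The 6 of macrophages summed to 7.61 to 25.2 CPM with the high-fat diet, against 18.9 to 48.9 CPM with chow, and the 6 of myofibres to 9.91 to 21.9 CPM with the high-fat diet, against 18.8 to 32.3 CPM with chow. None of these markers of other cell types passed in edgeR, DESeq2 or limma-voom. Pi16 was found almost only in high-fat diet library 1 (14.9 CPM), and Adgre1 and C1qa, which define macrophages, were at 0 throughout. Kdr was the 1 endothelial marker without overlap, at 24.3, 23.8 and 39.3 CPM with the high-fat diet against 11.9, 13.7 and 7.29 CPM with chow. Pmp22 was also higher without overlap, and the myofibre marker Tnnt3 was lower. Over all tested genes, 7.42% were higher and 7.87% lower without overlap. The part of these cells in the members' values was not tested.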

How the data were processed

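RNA was measured in 6 libraries of sorted satellite cells, 3 per diet, from RNA with an integrity number of 8.5 to 9.4 after ribosomal RNA depletion, as 75-base single reads, per the labels' protocols. The authors deposited raw counts, 1 table per library, with a whole number for each Entrez gene ID and no normalization. Bowtie2, featureCounts and the builds GRCm38 and mm10 are named in the submitters' processing notes, while versions, the strand setting and the handling of multiply mapped reads are not given in the sources used here. Symbols for 25275 of 27179 IDs came from the RefSeq table of GRCm38.p6. In R 4.3.3, edgeR 4.0.16 (filterByExpr with a minimum count of 10, TMM, glmQLFit and glmQLFTest, two-sided) was fitted on all genes with diet as the only factor, and p-values were adjusted by Benjamini-Hochberg over all 13202 tested genes. Standard errors were taken as the size of the log2 fold change over the root of F, and 95% intervals follow from it. DESeq2 1.42.0 and limma-voom (limma 3.58.1), also with sample quality weights, 3 other scalings, 2 other filters, an adjusted p under 0.1, a replicate block and left-out libraries were alternatives. Exon lengths, overlaps and 75-base matches used GENCODE M21 transcripts with a RefSeq messenger RNA, exact on both strands. The test was tried on simulated counts in 5 runs with 200 changed genes each. The members, lists and alternatives were chosen with earlier results of these data known. Named genes were the 10 members, Srebf1, Srebf2, Insig1, and of each further list those that passed or else the 2 with the smallest p. Single markers, Eif3f's values and the shown promoters were chosen after values were seen. Each pair of libraries differed by more than sampling noise, and none was dropped.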

Additional observations from a re-analysis of the deposited data

How the results depend on the processing

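No member and none of the other pathway genes tested was called under any of the 17 alternatives. The alternative with an adjusted p under 0.1 reuses the main fit, so its fold changes could not differ. Of 170 member values under the 17 alternatives, 162 kept the sign of the value reported. The other 8 were Acss2 with limma-voom (-1.28, also -1.28 with quality weights), with the replicate block (-0.076) and without high-fat diet replicate 1, Fads1 without high-fat diet replicate 2 or 3 or chow replicate 3, and Fasn without chow replicate 1. With 1 library left out, log2 fold changes ran from -0.22 to 1.19 for Acss2, from -0.97 to 0.54 for Fads1 and from -0.15 to 0.049 for Fasn. The cause was not tested. The members' median ran from -0.31 to -0.02 over all alternatives. The number of genes called over the whole table was 163 with no filter, 198 with DESeq2, 99 with limma-voom, 112 with quality weights, 1 without high-fat diet library 1 and chow library 3, and 9 to 44 with 1 library left out, against 34 with all 6 libraries in edgeR.

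Replicate numbers are shared between the diets but nothing says that they pair libraries. Deviations of same-numbered libraries from their diet means correlated at 0.0245, 0.0346 and -0.0261 across genes. With the replicate block, 45 genes were called over the whole table and 0 members. For members with few counts such as Acss2 and Fads1, the spread between libraries is several times that of counting and limits what can be detected. The spread was above that of counting in both diets for every other member too. With the high-fat diet, the coefficient of variation was 42.6% for Elovl1, where counting would give 4.01%. For Fasn it was 8.97% beside 1.90%, and for Elovl5 6.85% beside 4.18%.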
